A study of Homo sapiens with 9 samples.

Results

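The transcripts compared here came from 4 huntingtin (HTT) repeat reporters, RANQ123, WTQ140, RANA123 and WTA140, each introduced into HEK293T cells and into HEK293 cells. Libraries were selected by the cell line and plasmid in their labels, which gave 8 of the 9 libraries of the series, 4 per line. The remaining library, AUG-NL in HEK293, has no HEK293T counterpart and was left out. HEK293 is a human embryonic kidney line, and HEK293T is a derivative of it that carries the SV40 large T antigen. Cells of both lines were transfected with plasmid, and total RNA was sequenced. WT plasmids keep the normal HTT coding sequence ahead of the repeat. In RAN plasmids the ATG codons at positions 1 and 8 of that sequence were replaced, with UGA and AUC respectively. Q and A give the reading frame in which nanoluciferase, a small reporter luciferase, was placed. Each plasmid and line was represented by 1 library. The HEK293 libraries were batch 1 and the HEK293T libraries batch 2, so line and batch cannot be told apart in anything that follows. Whether the libraries came from separate cultures is not stated, and the 4 plasmids served as 4 pairs, so the p-values measure the spread between plasmids and not between repeated cultures.

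HTT encodes huntingtin, and expansion of the CAG repeat in its first exon causes Huntington's disease. Repeat-associated non-AUG (RAN) translation is protein synthesis that begins within or near an expanded repeat without an AUG start codon, and it can run in more than 1 reading frame. In the CAG frame it gives polyglutamine (Q) and in another frame polyalanine (A). Reporters of this kind place a luciferase behind the repeat so that translation in 1 chosen frame can be read out, and an RNA end map of the same transcripts shows where their sequenced reads begin or stop.

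WT and RAN plasmids carry different numbers at the end of their names. They also differ in the HTT coding stretch from the start codon to the CAG repeat. It lies in exon 1 of transcript ENST00000355072.10 on chromosome 4 (GRCh38, GENCODE 29, plus strand, exon 1 at chr4:3074681-3075088) and holds 17 codons in 51 bases. The capitals mark the 2 ATG codons, at codons 1 and 8, which the RAN plasmids lack.
HTT exon 1, chr4:3074826-3074876: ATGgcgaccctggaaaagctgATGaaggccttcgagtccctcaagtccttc
In the reference genome 19 CAG units follow directly, at chr4:3074877-3074933. The deposited files number bases 2 to 6566 of a reference that neither the labels nor the headers name. Base numbers below belong to that reference, and none was placed on the genome.

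The measured quantity was the number of ends at each of the 6565 numbered bases. The 4 HEK293 libraries held 4087 (RANQ123), 8492 (WTQ140), 5328 (RANA123) and 3553 (WTA140) ends. The HEK293T libraries held 717, 2308, 389 and 387 in the same order. Every HEK293T total lay below every HEK293 total. How many reads each library was sequenced to is not stated in the labels or headers, so a total is not a measure of transcript level. The totals differed most for the A plasmids, with RANA123 13.7-fold and WTA140 9.18-fold lower in HEK293T, against 5.70-fold for RANQ123 and 3.68-fold for WTQ140. The geometric mean was 7.17-fold. Log2 totals differed by -2.84 ± 0.824 (HEK293T minus HEK293, SD, n = 4 pairs). The two-sided exact sign-flip permutation test gave p = 0.125, which is the smallest p that 4 pairs allow, and 0.196 after Benjamini-Hochberg adjustment over 11 paired tests.

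**Figure D1:**
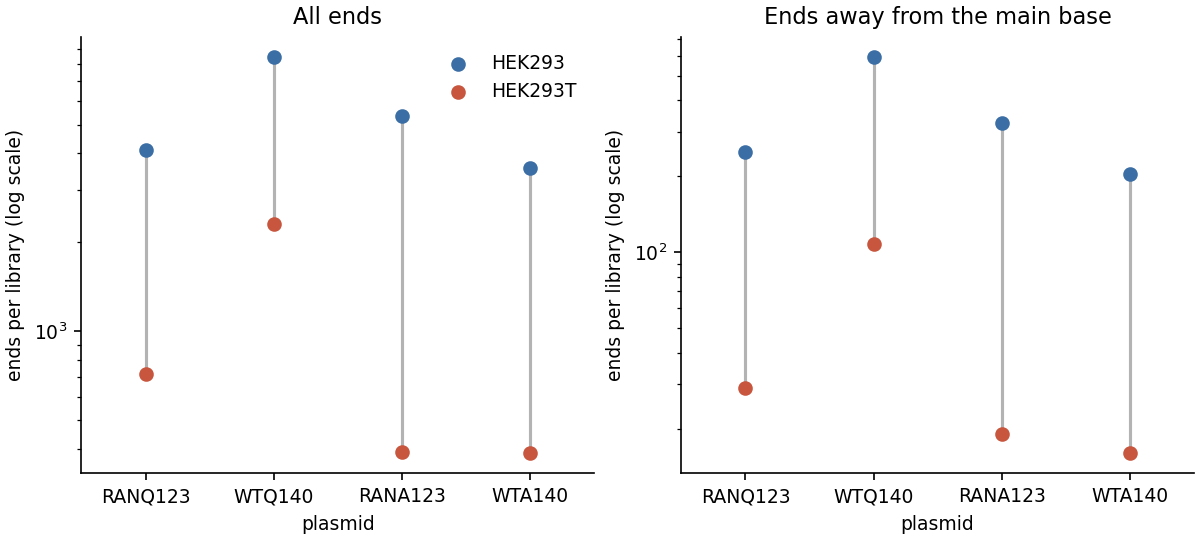
Ends per library on a log scale for each plasmid, over all bases (left) and away from the main base, base 2960 (right). Blue points are HEK293 and red points HEK293T libraries, joined within a plasmid. All HEK293T points lie under their HEK293 partners, and the gap is wider for ends away from the main base (5.52-fold to 17.1-fold) than for all ends (3.68-fold to 13.7-fold).

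One base, 2960, held most ends of each of the 8 libraries and is called the main base. Away from it, HEK293 libraries held 249 (RANQ123), 596 (WTQ140), 324 (RANA123) and 204 (WTA140) ends. HEK293T libraries held 29, 108, 19 and 16. These were 8.59-fold, 5.52-fold, 17.1-fold and 12.8-fold lower, with a geometric mean of 10.1-fold against 7.17-fold for all ends. The factor was larger than that of the total in each of the 4 plasmids. This is the same observation as a higher share at the main base in HEK293T, given below, and not a separate one.

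To compare how widely ends were spread, each library was thinned to 387 ends, the smallest total, and the expected number of bases that keep an end was computed exactly. In HEK293 the result was 19.9 bases (RANQ123), 24.7 (WTQ140), 20.5 (RANA123) and 18.8 (WTA140). In HEK293T it was 12.7, 14.9, 16.9 and 15.0 in the same order. The ranges of the lines did not overlap. At this depth 1 draw of a HEK293 library varied by 3.42 to 4.19 bases (thinning SD), about as much as the lines differed in the A pairs. The mean difference was -6.08 ± 2.96 bases (SD, n = 4 pairs; lower in HEK293T in 4 of 4; exact sign-flip p = 0.125, adjusted 0.196). With the main base left out and each library thinned to 16 ends, the smallest remainder, the difference was -0.836 bases (exact sign-flip p = 0.375). HEK293 libraries then had 13.6, 14.7, 14.0 and 13.5 bases and HEK293T libraries 11.9, 12.7, 13.9 and 14.0, so the lines overlapped. At most 16 bases can be counted at that depth, so the sizes of the 2 differences are not on 1 scale.

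The 2 Q pairs differed by -7.22 (RANQ123) and -9.74 bases (WTQ140), and the 2 A pairs by -3.55 (RANA123) and -3.80 bases (WTA140). Whether Q and A pairs differ was not tested. Most of the bases counted at 387 ends held a single end. That class differed by -5.93 bases, with 17.1 ± 2.69 in HEK293 and 11.2 ± 1.81 in HEK293T (SD, n = 4 libraries; exact sign-flip p = 0.125, adjusted 0.196). The class made up most of the difference in all bases. Bases with exactly 2 ends numbered 1.97 ± 0.126 and 2.24 ± 0.490 (n = 4 libraries; exact p = 0.5, adjusted 0.55).

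Thinned to the total of its HEK293T partner instead, RANQ123 in HEK293 kept an end at 32.1 ± 4.15 bases (thinning SD) against 19 observed in HEK293T. For WTQ140 the values were 104 ± 6.80 and 46, the widest gap of the 4 pairs. RANA123 gave 20.6 ± 3.65 against 17, and WTA140 18.8 ± 3.42 against 15. The A pairs therefore differed by about 1 thinning SD, and the Q pairs by more than 3.

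**Figure D2:**
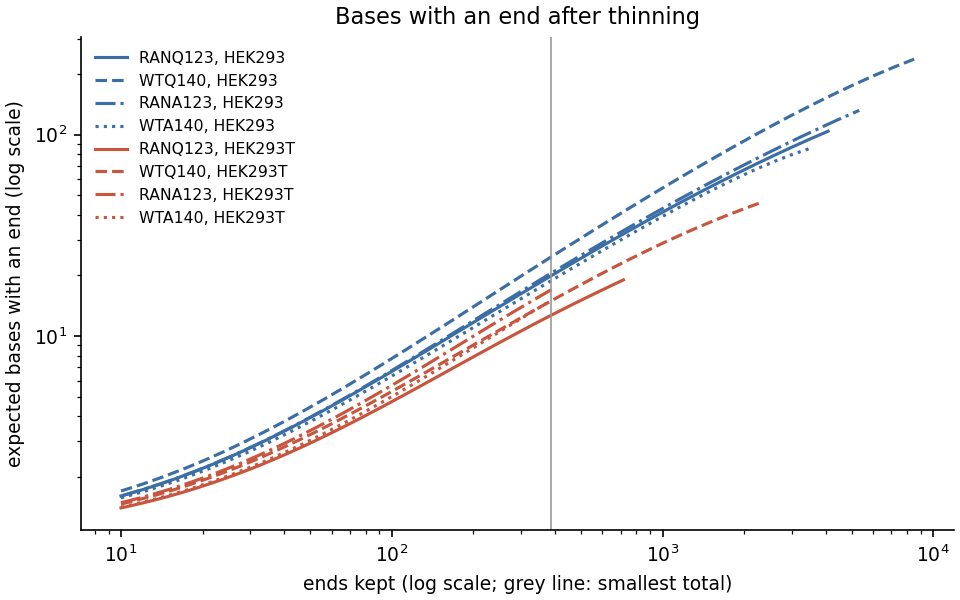
Expected number of bases with an end (log scale) against the number of ends kept (log scale), 1 curve per library, blue for HEK293 and red for HEK293T, with line style marking the plasmid. At the grey line, 387 ends, the HEK293 curves lie at 18.8 to 24.7 bases and the HEK293T curves at 12.7 to 16.9.

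The narrower spread went with a higher share at the main base, and these results are not independent. At an equal number of ends, a library with a higher share there keeps fewer other ends. Fewer other ends can by themselves lower the number of bases counted. With the main base left out and 16 ends kept, the difference was -0.836 bases and the lines overlapped. How much of the narrower spread goes beyond the higher share was not tested. In HEK293, base 2960 held 93.9% (RANQ123), 93.0% (WTQ140), 93.9% (RANA123) and 94.3% (WTA140) of ends. In HEK293T it held 96.0%, 95.3%, 95.1% and 95.9%. Each HEK293T share was above each HEK293 share. The pairs differed by 2.05, 2.34, 1.20 and 1.61 percentage points, with a mean of 1.80 ± 0.501 (SD, n = 4 pairs; exact sign-flip p = 0.125, adjusted 0.196). The exact Clopper-Pearson 95% intervals were apart only for WTQ140, at 92.4 to 93.5% in HEK293 and 94.4 to 96.2% in HEK293T. Intervals cover counting error only. The shares of a library sum to its whole, so a higher share at the main base goes with lower shares elsewhere, and the regional differences that follow are not independent of it.

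The other ends were grouped by position. The empty stretch was defined as the longest run of bases with no end in any of the 8 libraries that starts within 100 bases after the main base. It covers the 421 bases from 2980 to 3400 and is empty in each library by that definition. The groups were the 200 bases before that empty stretch (2780 to 2979, main base left out), the 240 bases after it (3401 to 3640) and the 5704 far bases beyond both. Before the empty stretch, the share was 2.62% ± 0.142 in HEK293 and 1.80% ± 0.498 in HEK293T (SD, n = 4 libraries), lower in HEK293T in each of the 4 pairs, with pair differences of -1.32 to -0.317 points (two-sided exact sign-flip p = 0.125; 0.196 after adjustment). As a share of ends away from the main base, the mean difference was -1.10 points (exact sign-flip p = 0.875). Both Q pairs were higher in HEK293T there, at 48.3% against 44.2% (RANQ123) and 51.9% against 39.1% (WTQ140). Both A pairs were lower, at 26.3% against 42.9% (RANA123) and 37.5% against 42.2% (WTA140). With each base counted once per library, in place of each end, the mean was 5.57 points higher in HEK293T (exact sign-flip p = 0.25). Libraries were not thinned for that value, and the bases in use depend on depth, so no direction is read from it. At the HEK293T depths, 53.6 ± 4.94 bases (thinning SD, summed over the 4 libraries) were expected to carry an end in this region, and 31 did. After the counts were seen, the region was divided into the 2 bases before the main base, the 10 bases after it and the other 187 bases.

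The bases next to the main base had similar shares of all ends in both lines. The 2 bases before it, 2958 and 2959, held 0.896% ± 0.141 of HEK293 ends and 0.735% ± 0.182 of HEK293T ends (SD, n = 4 libraries; lower in 3 pairs of 4, with an exact sign-flip p of 0.25 and 0.344 after adjustment). The 10 bases after it, 2961 to 2970, held 0.894% ± 0.141 and 0.926% ± 0.350 (n = 4 libraries; higher in 2 of 4 pairs; exact p = 1). At the HEK293 shares of the same plasmids, 33.2 and 35.7 ends were expected in the HEK293T libraries. The observed numbers were 32 and 43.

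The other 187 bases before the empty stretch differed more. They held 1.101% (45 ends) of RANQ123, 0.871% (74) of WTQ140, 0.826% (44) of RANA123 and 0.507% (18) of WTA140 ends in HEK293. In HEK293T they held 0.139% (1 end), 0.173% (4), 0.257% (1) and 0, where 0 of 387 ends allows up to 0.775% by the floor of 3 ends and 0.949% by the Clopper-Pearson limit. Every HEK293T share was below every HEK293 share, and the mean difference was -0.684 ± 0.202 percentage points (SD, n = 4 pairs; exact sign-flip p = 0.125, adjusted 0.196). Counting intervals were apart for RANQ123 (0.804 to 1.47% against 0.00353 to 0.775%) and WTQ140 (0.685 to 1.09% against 0.0472 to 0.443%), and overlapped for the A plasmids.

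Pooled over plasmids, the share of these 187 bases was 0.843% in HEK293 and 0.158% in HEK293T, 5.34-fold lower. At the HEK293 shares 33.2 ends were expected in HEK293T, and 6 were seen. Without the WTQ140 pair, which holds most HEK293T ends, the numbers were 13.1 expected and 2 seen. At the HEK293T depths, 28.4 ± 4.17 bases (thinning SD, summed over the 4 libraries) were expected to carry an end, and 5 did. All 5 of those bases also had an end in HEK293, where 72 of the 187 (38.5%) were in use.

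**Figure D3:**
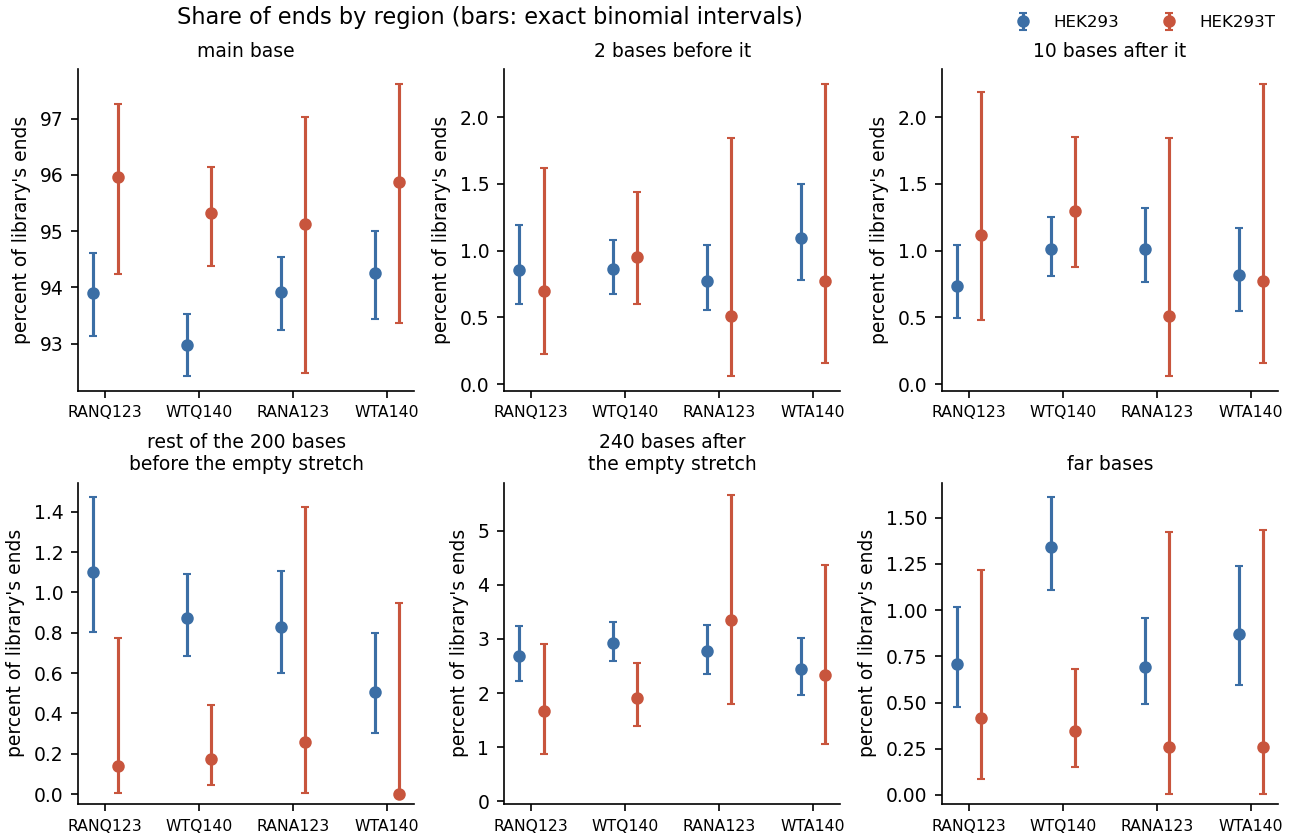
Percent of each library's ends at the main base, at its neighbours, and in the regions farther out, by plasmid, with exact binomial 95% intervals. The vertical axes differ, and that of the main base does not begin at 0. HEK293T (red) lies above HEK293 (blue) at the main base in 4 of 4 plasmids and below it in the rest of the 200 bases and at far bases in 4 of 4, with overlapping intervals in many panels.

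Far bases showed the same direction. In HEK293 they held 0.710% (RANQ123, 29 ends), 1.34% (WTQ140, 114), 0.694% (RANA123, 37) and 0.873% (WTA140, 31) of ends. In HEK293T they held 0.418% (3 ends), 0.347% (8), 0.257% (1) and 0.258% (1). The lines did not overlap, and the mean difference was -0.585 ± 0.304 percentage points (SD, n = 4 pairs; exact sign-flip p = 0.125, adjusted 0.196). Counting intervals were apart for WTQ140 alone (1.11 to 1.61% against 0.150 to 0.682%). At the HEK293 shares 42.1 far ends were expected in HEK293T and 13 were seen. That gap rests largely on WTQ140, without which 11.2 were expected and 5 seen.

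HEK293 ends lay on 131 of the 5704 far bases (2.30%), of which 73 held 1 end, 49 held 2 and 9 held 3 or more. Of the 211 far ends in HEK293, 52 lay before and 159 after the main base. HEK293T ends lay on 5 far bases, 612, 613, 614, 4010 and 4029, and 0 of the 5 had an end in HEK293. With 2.30% of far bases in use in HEK293, 5 bases are too few to tell whether the lines differ in position over the far bases as a whole. Bases 612 to 614 are adjacent and held 7 of the 13 far ends in HEK293T. Those ends came from all 4 HEK293T libraries (RANQ123 and RANA123 at 612, WTA140 at 613, RANQ123 and WTQ140 at 614). The 3 bases were grouped after their values were seen and were not tested together. Bases 4010 (2 ends) and 4029 (4 ends) came from 1 library, WTQ140 in HEK293T, and were named, like base 613 (1 end in WTA140), after their values were seen.

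The 240 bases after the empty stretch did not differ in a single direction. They held 2.69%, 2.93%, 2.78% and 2.45% of HEK293 ends (RANQ123, WTQ140, RANA123 and WTA140), and 1.67%, 1.91%, 3.34% and 2.33% of HEK293T ends. The share was lower in HEK293T in both Q pairs, by -1.02 (RANQ123) and -1.03 points (WTQ140). In the A pairs it differed by 0.564 (RANA123) and -0.123 points (WTA140). The mean difference was -0.401 ± 0.770 points (SD, n = 4 pairs; exact sign-flip p = 0.375, adjusted 0.458). As a share of ends away from the main base, the mean was 8.13 points higher in HEK293T (exact sign-flip p = 0.5). Both Q pairs remained lower there, at 41.4% against 44.2% (RANQ123) and 40.7% against 41.8% (WTQ140). The A pairs, with 19 and 16 such ends in HEK293T, were higher, at 68.4% against 45.7% (RANA123) and 56.2% against 42.6% (WTA140). Counting intervals were apart for WTQ140 only (2.58 to 3.31% in HEK293 against 1.39 to 2.55% in HEK293T).

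Positions within these 240 bases did not shift in a single direction. The median end lay 137 (RANQ123), 133 (WTQ140), 126 (RANA123) and 127 (WTA140) bases after the empty stretch in HEK293. In HEK293T it lay 124, 139.5, 148 and 158 bases after it, from 12, 44, 13 and 9 ends, so it was earlier for RANQ123 and later for the other 3. No test was made of these medians. Pooled over plasmids, the median lay 127 bases after the empty stretch in HEK293 (594 ends, quartiles 90.2 and 169) and 142.5 bases after it in HEK293T (78 ends, quartiles 113 and 166). The 40 bases from 3521 to 3560 held the most in both lines, with 31.1% of the HEK293 and 37.2% of the HEK293T ends of the region. Of the 49 bases with an end in HEK293T, 39 also had one in HEK293, where 151 of the 240 (62.9%) were in use.

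**Figure D4:**
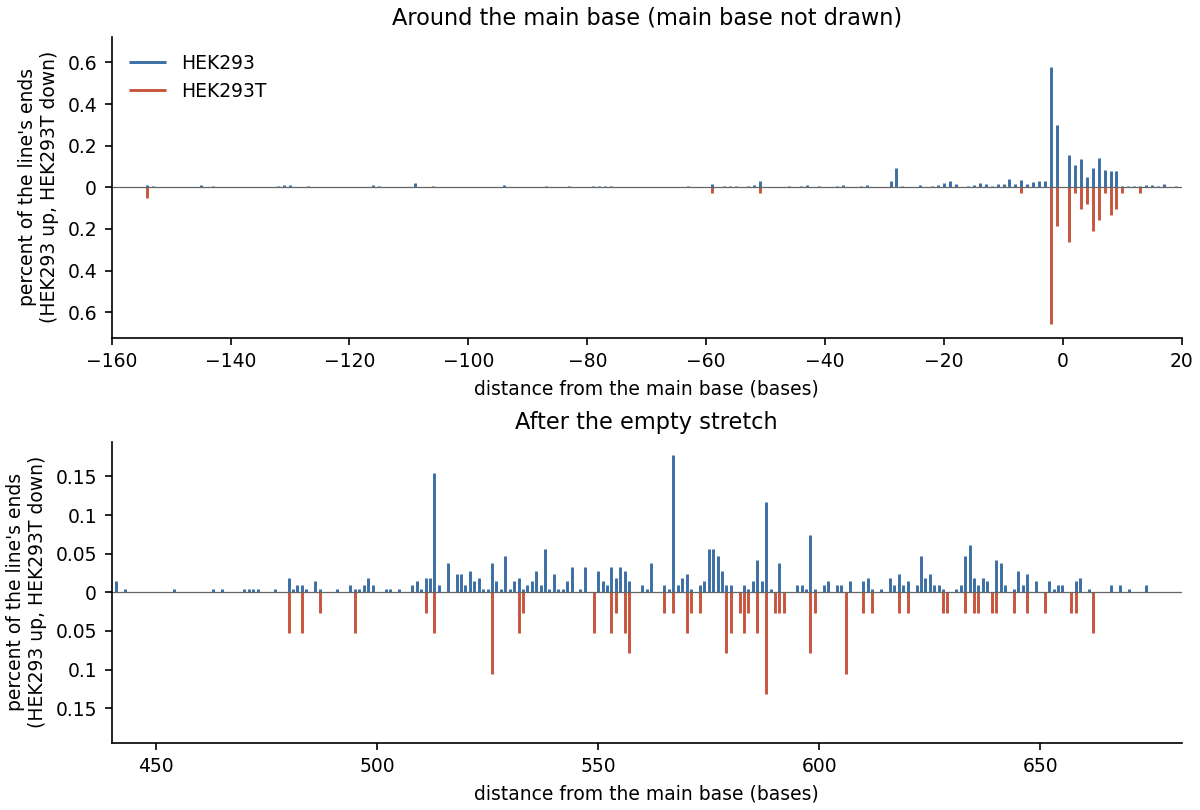
Percent of each line's pooled ends at single bases against the distance from the main base, HEK293 upward and HEK293T downward, around the main base (top, main base not drawn) and after the empty stretch (bottom). The tallest bar of both lines stands 2 bases before the main base. Base 2932, 28 bases before the main base, has 20 of 21460 ends in HEK293 and 0 of 3801 in HEK293T. At the HEK293 shares 2.58 ends were expected there in HEK293T. That base was picked out by its HEK293 ends alone, so no difference between the lines is read from it.

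Single bases were tested for a change in share with edgeR's quasi-likelihood test, with the plasmid as a block and the library totals as offsets. Of the 29 bases with at least 10 ends over the 8 libraries, 0 were called at a Benjamini-Hochberg adjusted p under 0.05 (0%), and 0 had an unadjusted p under 0.05. The lowest adjusted p was 0.480, and DESeq2 also called 0, with 0 unadjusted p under 0.05. Apart from base 2960, the pooled share was higher in HEK293T at 11 bases and lower at 17. The split was 7 higher and 5 lower among the 12 bases before the empty stretch, 4 higher and 11 lower among the 15 after it, and lower at the 1 far base. The filter on summed ends bears on this count, since HEK293 holds 21460 and HEK293T 3801 of the ends and 9 of the 28 bases passed on HEK293 ends alone. No direction over the bases is read from it.

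Besides base 2960, 4 tested bases had an end in at least 3 HEK293T libraries, and all 4 were its neighbours. Base 2958 held 0.710%, 0.483%, 0.488% and 0.788% of HEK293 ends (RANQ123, WTQ140, RANA123 and WTA140) and 0.558%, 0.737%, 0.514% and 0.517% of HEK293T ends. The ranges of the lines overlapped there, and the log2 ratio was 0.17 ± 0.29 (SE implied by the edgeR p; adjusted p = 0.805). Base 2959 held 0.147%, 0.377%, 0.282% and 0.310% in HEK293 and 0.139%, 0.217%, 0 and 0.258% in HEK293T. It was lower in HEK293T in each pair, from 0 to 5 HEK293T ends a library. Its log2 ratio was -0.77 ± 0.60 (SE, edgeR adjusted p = 0.480). Bases 2963 and 3594 were also lower in each pair. Base 2963 had 4 HEK293T ends, all in WTQ140, against 5.45 expected at the HEK293 shares, and base 3594 had 0 against 2.52. A library with 0 ends counts as lower wherever its partner has an end, so no direction is read from these pairs.

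Base 2961, directly after the main base, held 0.122%, 0.200%, 0.113% and 0.141% in HEK293 and 0.418%, 0.217%, 0.257% and 0.258% in HEK293T. It was the 1 tested base apart from 2960 that was higher in HEK293T in 4 of 4 pairs, from 3, 5, 1 and 1 HEK293T ends, and the lines did not overlap. The mean shares were 0.144% ± 0.0393 and 0.288% ± 0.0893 (SD, n = 4 libraries), with a log2 ratio of 0.72 ± 0.68 (edgeR adjusted p = 0.528). The ratio was 0.46 without the RANQ123 pair, 1.36 without WTQ140 and 1.20 with ends away from the main base as the total. Base 2966 held 0.137% ± 0.0371 and 0.143% ± 0.108 (n = 4 libraries; log2 ratio 0.13 ± 0.82, edgeR adjusted p = 0.910). Base 2960 itself had a log2 ratio of 0.03 ± 0.03 (edgeR adjusted p = 0.480). It made up most of each library total that served as the offset, so its ratio could move little. This p therefore cannot decide whether its share differed.

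Of the 28 tested bases other than 2960, 9 had 0 ends in the HEK293T libraries, and 15 had an end in 1 or 2 of them. The 9 held 10 to 20 ends in HEK293. At the HEK293 shares they would have had 1.11 to 3.07 ends each in HEK293T, which for 8 of the 9 was under the floor of 3 ends that a count of 0 allows. Base 2932, 28 bases before the main base, was the base with the lowest edgeR p (unadjusted 0.115). It held 9 (RANQ123), 1 (WTQ140), 10 (RANA123) and 0 (WTA140) ends in HEK293 and 0 in each HEK293T library, against 2.58 expected.

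The next in order of p were bases 3536, 3535, 3594 and 3473. Bases 3535 and 3536 each held 12 ends in HEK293, all in the Q plasmids, and 0 in HEK293T, with 2.59 and 3.07 expected. Base 3594 held 1, 7, 3 and 2 ends in HEK293 and 0 in HEK293T, with 2.52 expected. Base 3473 held 5, 16, 9 and 3 ends in HEK293 and 0, 1, 0 and 1 in HEK293T, 2 against 6.21 expected (log2 ratio -1.52 ± 1.098, edgeR adjusted p = 0.480). That ratio was -0.84 without the WTQ140 pair and -2.44 without WTA140. In windows of 10 bases, 0 of 27 were called, and 2 had an unadjusted p under 0.05. Bases 2932 to 2941 held 36 ends in HEK293 and 0 in HEK293T (5.19 expected; edgeR quasi-likelihood unadjusted p = 0.0379, adjusted p = 0.539). Bases 2942 to 2951 held 29 and 0 (5.01 expected; edgeR unadjusted p = 0.0442, adjusted p = 0.539). Both windows passed the filter of at least 10 summed ends on HEK293 ends alone. That filter favours windows with many HEK293 ends, so no difference is read from the unadjusted values.

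**Figure D5:**
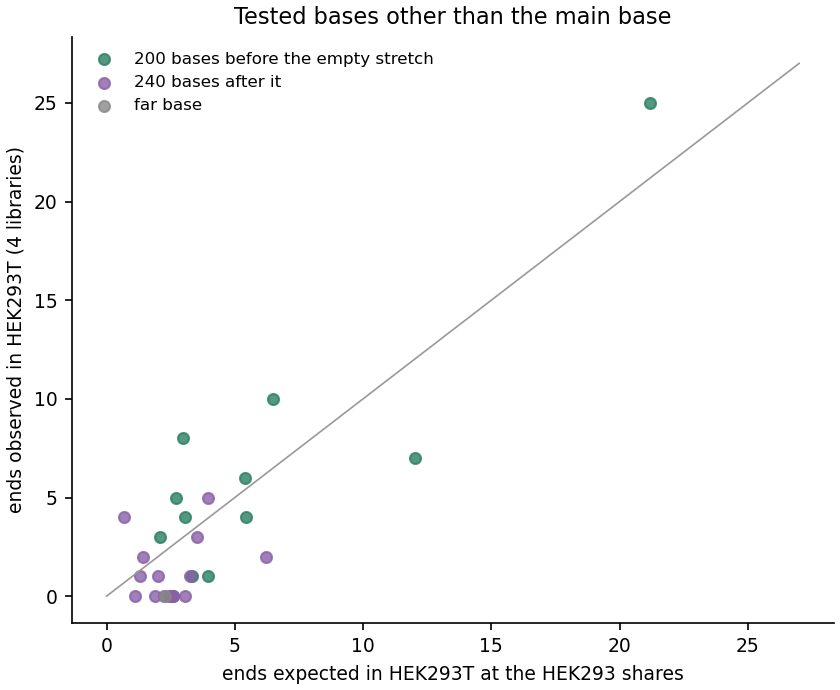
Ends observed in the 4 HEK293T libraries against the ends expected there at the HEK293 shares of the same plasmids, for the 28 tested bases other than the main base. Points on the grey line have equal shares in both lines. Most points after the empty stretch (purple) lie under the line, and 9 points lie at 0 observed ends. Those 9 bases passed the filter on summed ends through HEK293 alone, so no direction is read from the plot.

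Over the whole reference, 382 bases had an end in either line. Of these, 57 had ends in both lines, which was 79.2% of the 72 bases in use in HEK293T and 15.5% of the 367 in use in HEK293. These shares compare 3801 with 21460 ends. HEK293 used 367 of all 6565 numbered bases. By region it used 42.2% of the bases before the empty stretch, 62.9% of those after it and 2.30% of far bases. Thinned to 3801 ends, the pooled HEK293 libraries had an end at 133.9 ± 7.99 bases (thinning SD), against 72 in HEK293T. The 15 bases in use in HEK293T alone held 28 of its 3801 ends (0.737%). Of the 15, 10 lay after the empty stretch, 5 were far bases and none lay before it. In these regions HEK293T used 49, 5 and 17 bases in all. Bases 612 and 614 were the 2 with an end in more than 1 HEK293T library, base 612 with 1 end each in RANQ123 and RANA123 and base 614 with 2 each in RANQ123 and WTQ140. Base 613, between them, had 1 end in WTA140. Base 3566, with 4 ends in WTQ140, held as many as base 614.

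Each HEK293T library was also set beside all 4 HEK293 libraries thinned to 3553 ends, to see whether its ends away from the main base lay where the same plasmid had ends in HEK293. For WTQ140, 63.8% of its 108 ends were at bases in use in WTQ140 in HEK293, against 55.9 to 60.8% for the other plasmids. For RANA123 the value was 53.1% of 19 ends, against 31.6 to 44.5%. For WTA140 it was 62.5% of 16 ends, against 54.8 to 61.4%. RANQ123 went the other way, with 58.6% of its 29 ends at bases in use in RANQ123 but 73.4% at bases in use in RANA123, 62.6% in WTQ140 and 51.7% in WTA140. The same plasmid ranked first in 3 of 4 cases. With 16 to 108 ends per library and no repeat libraries, these ranks are a description.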

How the data were processed

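Per the labels' protocols, total RNA of cells transfected with FuGENE HD was extracted on RNeasy columns with DNase I treatment, and libraries were made by a sequencing service. The deposited files hold raw counts, and per the file headers their columns are base and ends. Cutadapt 4.9, STAR, SAMtools and hg38 appear, with no roles, in the submitters' processing notes. No label or header names the reference that was numbered, says which end was counted, or tells how read mates and duplicates were treated, and each could move or remove ends.

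The cell lines were compared over 4 plasmid pairs with two-sided exact sign-flip permutation tests (smallest p 0.125), and 11 such tests were adjusted together. Thinning was exact (hypergeometric expectation and SD). Bases with at least 10 ends summed over the 8 libraries were tested with edgeR 4.0.16 in R 4.3.3 (plasmid and line as factors, library totals as offsets and no TMM), so that a log2 ratio compares shares. Alternatives included TMM, DESeq2 1.42.0, other filters and designs, 10-base windows and each pair left out. Python 3.11.15 and scipy 1.17.1 were used. Scripts were tested on simulated data. Totals of 387 to 8492 ends set the precision, with 3 ends equal to 0.775% of the shallowest and 0.0353% of the deepest library. Several ends may come from 1 molecule, so intervals, thinning SDs and floors cover counting error only.

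The members, regions and rules were chosen with earlier results of these data known. The named bases were those with at least 10 ends over the 8 libraries (values per library where at least 3 HEK293T libraries had an end), the 5 with the lowest p, and those with ends in at least 2 HEK293T libraries and 0 HEK293 libraries. No gene lists or cell type markers were used because the files hold positions.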

Additional observations from a re-analysis of the deposited data

Results flagged for a closer look

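At 387 ends, RANA123 in HEK293T had 2.97 bases with exactly 2 ends, while the other 3 HEK293T libraries had about 2 each, and this made it stand apart from them. Of the 22 sets of 4 values examined in this way, 1 had such a value, and about 1 in 20 would by chance. This library holds 389 ends, so the value is nearly its unthinned count of 3 bases, and it rests on 1 base.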

How the results depend on the processing

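The bases called remained 0 under each of the 12 alternatives, with lowest adjusted p-values of 0.393 (without WTA140) to 0.992 (DESeq2). The paired tests cannot pass with 4 pairs or with 3 (smallest p 0.25), so their p-values say nothing about stability. With 1 pair left out, ranges were -3.16 to -2.53 for log2 totals, -6.92 to -4.85 for bases at equal depth, and 1.62 to 2.00 points for the main base. They were -0.978 to -0.642 points before the empty stretch, -0.722 to -0.192 after it, -0.682 to -0.448 at far bases and -0.743 to -0.591 in the other 187 bases.

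Shares of some regions change direction with the denominator. After the empty stretch the difference was 8.13 points among ends away from the main base and 6.81 points with each base counted once. Before the empty stretch it was 5.57 points with each base counted once. The 2 bases before the main base gave 2.20 points among ends away from it and 6.87 with each base counted once. The 10 bases after it kept their direction, with 0.0321 points among all ends, 6.82 among ends away from the main base and 12.9 with each base counted once. With 1 pair left out, they gave -0.0844 points without RANQ123, -0.0529 without WTQ140 and up to 0.209 without RANA123. The other 187 bases and the far bases stayed lower in HEK293T under each of these settings. Counting each base once used libraries that were not thinned, and deeper libraries reach more bases. That setting therefore does not separate line from depth, here or in the regions above. At the HEK293T depths, 28.4 ± 4.17 of the other 187 bases and 37.9 ± 4.91 far bases (thinning SD, summed over the 4 libraries) were expected to carry an end. The observed numbers were 5 and 7. The log2 ratio of base 2960 was -0.000126 with TMM and -0.0947 with DESeq2. Base 2958 gave -0.061 with DESeq2, -0.036 without the plasmid block and -0.32 without WTQ140 to 0.2966 without WTA140. Base 2966 gave -0.024 with DESeq2, -0.10 without WTQ140, -0.073 without WTA140 and 0.3256 without RANA123. With ends away from the main base as the total, base 2958 gave 0.73 (edgeR unadjusted p = 0.0402, adjusted p = 0.610), base 2966 0.66 and base 2959 -0.24. The cause of these changes was not tested. The division around the main base was chosen after the data were seen.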
